A study of Mus musculus with 118 samples.

Results

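The neuronal calcium sensors are small EF-hand proteins of neurons and photoreceptors, and 6 of their genes, Ncald, Ncs1, Hpca, Hpcal1, Hpcal4 and Vsnl1, were examined in single SOM+ interneurons of mouse neocortex. These 6 genes are 6 of the 23998 gene symbols of the count table, and they were taken by name. The family was chosen by the difference of Ncald between layers in these same cells, measured in the same counts, so the layer values of Ncald are given as a description and support nothing further. RNA of single cells was collected by Patch-seq, in which a neuron is recorded with a patch pipette in a brain slice and its contents are then aspirated and sequenced. All cells came from adult SOM-Cre/Ai9 mice of both sexes, in which Cre expressed under the control of the somatostatin gene switches on the red fluorescent protein tdTomato from the Ai9 reporter. The line therefore marks cells that express, or once expressed, somatostatin. No other treatment or genotype was compared. The labels put each cell in layer 4 (L4) or layer 5 (L5) of primary visual cortex (V1) or primary somatosensory cortex (S1), and they name no animal. Each area and layer was therefore treated as 1 sample, and no test over cells was made.

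Cells were kept if they had at least 1500 genes above 0, no more counts of the glutamatergic gene Slc17a7 than of Gad1 and Gad2 together, and at least 1 count of Sst. This kept 42 of 44 V1 L4 cells, 34 of 39 S1 L4, 17 of 19 V1 L5 and 16 of 16 S1 L5 cells, and left out 4 cells with too few genes, 1 glutamatergic cell and 4 cells without an Sst read. The cells near these thresholds were well separated from them, since the shallowest kept cell had 1978 genes, the best cell left out for too few genes had 1153, and the lowest Sst count of a kept cell was 22. Kept cells had 97904 to 3295230 counts (median 1111830). All 8 of the SOM interneuron markers were read in each of the 4 groups, and their summed level was at least 1242 CPM (counts scaled to a total of 1000000 per cell) in every kept cell. This sum does not tell SOM cells from other interneurons. It holds Sst, which was part of the rule for keeping cells, and Gad1. The 4 cells left out without an Sst read had 1503 to 5923 CPM of Gad1 alone. The cells were recorded on 9 dates, taken here as recording days 1 to 9, with days 1 to 6 in a first series and days 7 to 9 in a second. All L5 cells came from days 3 to 6, so differences between layers were taken against the 37 L4 cells of the first series only. Values given by group hold the L4 cells of both series.

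Neuronal calcium sensors bind calcium through EF hands, and most of them carry a myristoyl group on the glycine that follows the initiator methionine. In most members calcium binding exposes this group and moves the protein to membranes, where it acts on channels, receptors, enzymes or coat proteins. The members differ in their calcium affinity, their targets and the neurons that express them. Hippocalcin (Hpca) is best known from hippocampal pyramidal cells, visinin-like 1 (Vsnl1) is found in many neurons, and neuronal calcium sensor 1 (Ncs1), the mammalian frequenin, is known for its effects on transmitter release.

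The first 60 coding bases of the 6 genes are printed because they hold the conserved start of the family and because they show how far the members can be told apart by sequence. They were read from the annotated transcripts of GRCm38, the build that the authors aligned to under its name mm10. Capitals mark the 29 of 60 positions at which all 6 genes have the same base.
Ncald: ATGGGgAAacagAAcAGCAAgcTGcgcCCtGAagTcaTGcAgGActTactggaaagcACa
Ncs1: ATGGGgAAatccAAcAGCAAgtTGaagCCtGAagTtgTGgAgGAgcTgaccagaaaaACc
Hpca: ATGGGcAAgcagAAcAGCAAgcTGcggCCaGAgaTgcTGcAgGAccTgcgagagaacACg
Hpcal1: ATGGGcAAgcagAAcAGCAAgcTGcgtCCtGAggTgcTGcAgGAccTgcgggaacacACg
Hpcal4: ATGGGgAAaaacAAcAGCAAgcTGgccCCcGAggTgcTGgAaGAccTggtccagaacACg
Vsnl1: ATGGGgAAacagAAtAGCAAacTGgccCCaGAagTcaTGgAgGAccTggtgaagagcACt
Ncald lies on the minus strand at chr15:37366175-37792570, Ncs1 on the plus strand at chr2:31245823-31295989 and Hpca on the minus strand at chr4:129111570-129122036. Hpcal1 lies on the plus strand at chr12:17690856-17791933, Hpcal4 on the plus strand at chr4:123183227-123194701 and Vsnl1 on the minus strand at chr12:11325242-11436613. Their coding sequences are between 573 bases (Ncs1) and 582 bases long (Ncald, Hpca and Hpcal1). Hpca and Hpcal1 were the closest pair, with 86.1% identical aligned bases, followed by Hpcal4 and Vsnl1 with 82.1%. Ncald was 80.2% identical to Hpcal1 and 79.5% identical to Hpca, whereas Ncs1 reached at most 64.7% with any other member. The longest run of bases shared by any pair was 46, between Ncald and Hpca, which is shorter than the 75-base reads. Reads of 1 member were thus not expected to match another exactly. In Ncald, 9.98% of the 75-base windows of the transcript also occur in the overlapping transcripts Gm28221 (antisense) and Gm49397, neither of which is in the count table. Hpca shares its last bases with Tmem54 on the opposite strand, and the library kit does not mark strand. The shared stretch is shorter than a read, and 0 of the 1773 windows of 75 bases in Hpca occur in another gene's transcripts. How the counts treated reads that touch both genes is not known.

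Of the 6 members, 5 were read in most cells and 1 was nearly silent. Vsnl1 was read in 99 of the kept cells (90.8%, 95% Clopper-Pearson interval 83.8 to 95.5%), Hpcal4 in 94 (86.2%, 78.3 to 92.1%), Ncs1 in 93 (85.3%, 77.3 to 91.4%), Ncald in 82 (75.2%, 66.0 to 83.0%) and Hpca in 61 (56.0%, 46.1 to 65.5%). Hpcal1 was read in 4 cells (3.67%, 1.01 to 9.13%). These intervals cover counting error over cells only. At a fixed depth of 250000 counts, which all but 3 L5 cells reached, the shares ranged from 90.6% for Vsnl1 to 52.8% for Hpca, with 2.83% for Hpcal1. At least 4 of the 5 widely read members were found in 76 cells, and all 5 in 41 cells. Only 1 cell, in V1 L4, had none of them.

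Levels of different genes were compared per transcript length, on the authors' RPKM values (reads scaled to transcript length and sequencing depth). In V1 L4, the mean log2(RPKM + 1) was 5.40 for Hpcal4, 5.30 for Vsnl1, 4.31 for Ncs1, 2.86 for Hpca, 2.41 for Ncald and 0.017 for Hpcal1. Each step of this order, apart from that between Ncald and Hpcal1, was smaller than its SD over 6 recording days. In S1 L4 the order was Vsnl1 (5.99), Ncald (4.85), Hpcal4 (4.77), Ncs1 (4.72) and Hpca (2.49), with no Hpcal1 read. The step from Ncs1 down to Hpca, 2.23, was above its SD over days of 1.37 and had the same sign in 7 of 7 days, while the steps among the first 4 genes were smaller than theirs. In V1 L5 it was Vsnl1 (6.75), Ncald (5.98), Hpcal4 (4.76), Ncs1 (4.56) and Hpca (2.95), again without Hpcal1, and again only the steps below Ncs1 exceeded their SD over 4 days. In S1 L5 Ncald came first with 7.19, ahead of Vsnl1 (6.31), Ncs1 (4.28), Hpcal4 (3.92), Hpca (3.23) and Hpcal1 (0.64). Ncald was above Vsnl1 there in 4 of 4 days, but the difference of 0.88 was below its SD over days of 1.03. The step from Vsnl1 to Ncs1, 2.03 with an SD over days of 1.80, and the step from Hpca to Hpcal1 were the ones in S1 L5 that exceeded their spread.

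**Figure D1:**
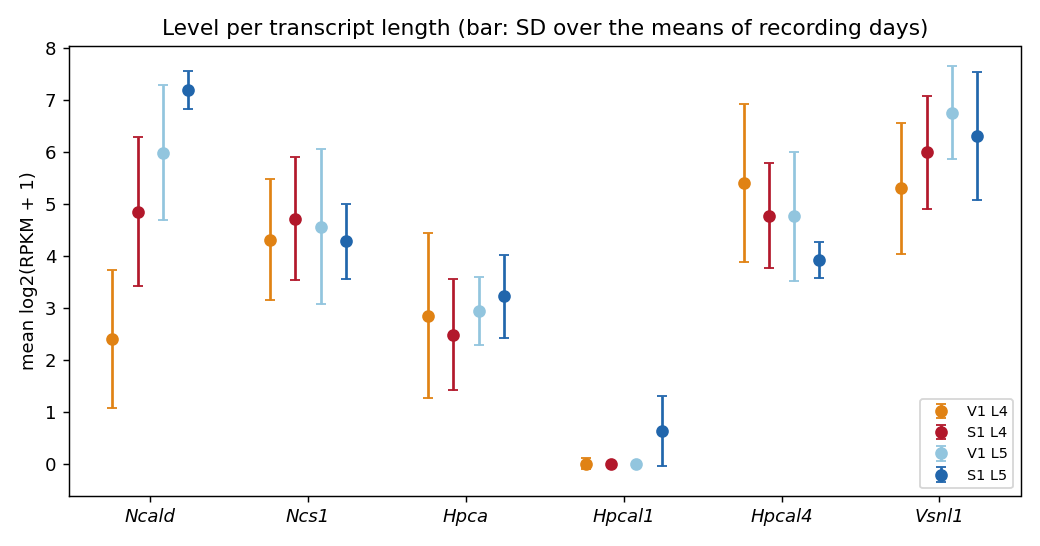
Mean log2(RPKM + 1) of the 6 genes (y axis) in the 4 groups, with the SD over the means of recording days with at least 2 cells of the group (6 days in V1 L4, 7 in S1 L4, 4 in each L5 group). Ncald goes from 2.41 in V1 L4 to 7.19 in S1 L5, while the group means of Ncs1 lie between 4.28 and 4.72.

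Of the summed mean RPKM of the family, Ncald held 7.07% in L4 and 31.6% in L5 of V1, against 27.5% and 36.8% in S1. The share of Hpcal4 went the other way, with 29.3% and 16.1% in V1 and 18.04% and 7.36% in S1. That of Vsnl1 stayed between 32.5% and 36.3%. Each share also depends on the other members, since Ncald is part of the sum. From L4 to L5, the mean RPKM of Hpcal4 went from 81.5 to 71.0 in V1 and from 59.7 to 33.4 in S1. That of Ncald went from 19.7 to 139.1 and from 91.1 to 166.7. For Vsnl1 it went from 101.1 to 156.9 and from 107.5 to 154.8. No spread over days was computed for the shares. Counted by cell, the member with the highest RPKM was Vsnl1 in 50 cells, Ncald in 25, Hpcal4 in 19, Ncs1 in 10 and Hpca in 4. By group, Ncald was highest in 1 of 42 cells of V1 L4 but 8 of 16 of S1 L5, and Hpcal4 in 12 of 42 and 1 of 16.

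Neurocalcin delta (Ncald) is a myristoylated sensor that has been described to bind clathrin and to regulate membrane guanylate cyclases. In V1 L4 it had a lowest value of 0 CPM, a median of 3.96 and a highest of 420, and 24 of 42 cells had a read. In S1 L4 the values ran from 0 over a median of 185 to 1319 CPM, with reads in 27 of 34 cells. In V1 L5 they ran from 0 over 485 to 1865 CPM, with reads in 15 of 17 cells. All 16 S1 L5 cells had reads, with a lowest value of 83.7, a median of 572 and a highest of 919 CPM. The groups overlapped, but no S1 L5 cell was as low as the V1 L4 median, and no V1 L4 cell was as high as the V1 L5 or S1 L5 median.

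**Figure D2:**
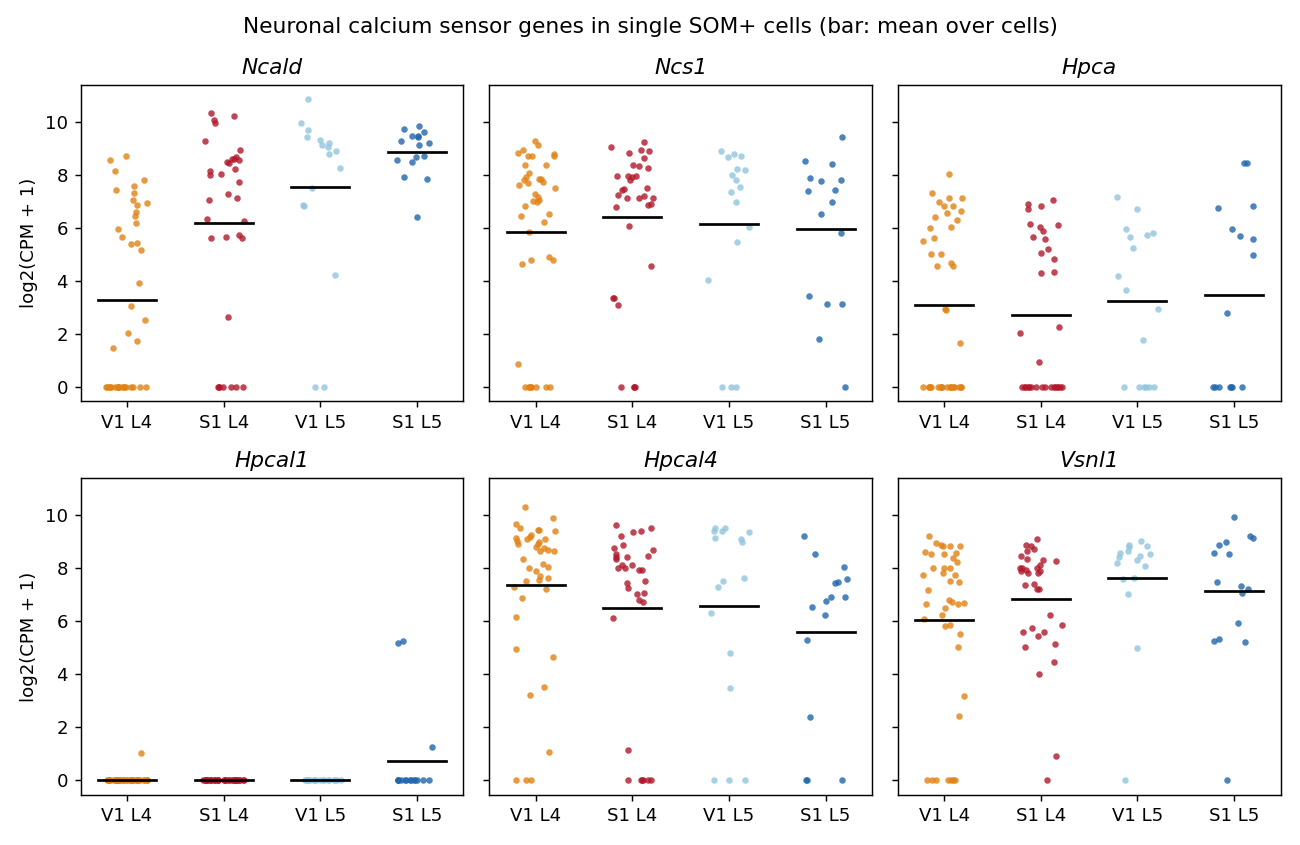
Level of each member in every kept cell as log2(CPM + 1) (y axis, the same in all panels), by area and layer (x axis), with the mean over cells as a bar. Ncald has 18 of 42 V1 L4 cells at 0 and no S1 L5 cell at 0, whereas Hpcal1 is at 0 in all but 4 cells.

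The mean log2(CPM + 1) of Ncald, a measure of level used for all comparisons below, went up from V1 L4 (3.29) over S1 L4 (6.18) and V1 L5 (7.54) to S1 L5 (8.87). Within V1 L4 it was 1.84 in the first series and 4.74 in the second, and within S1 L4 6.03 and 6.31. The SD over the means of recording days was 1.67, 1.75, 1.60 and 0.35, respectively. Only the step from V1 L4 to S1 L4, 2.89, was larger than the SD over days of both groups. The steps from S1 L4 to V1 L5 (1.36) and from V1 L5 to S1 L5 (1.33) were not. In detection the groups ranked in the same way, with 57.1% of V1 L4 cells (95% interval 40.96 to 72.3%), 79.4% of S1 L4 (62.1 to 91.3%), 88.2% of V1 L5 (63.6 to 98.5%) and 100% of S1 L5 cells (79.4 to 100%). At the fixed depth the shares were 54.8%, 79.4%, 86.7% and 100%, in the same order.

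Within the first series, Ncald averaged 8.19 over 33 L5 cells and 3.65 over 37 L4 cells, a difference of 4.53. Within recording days that held at least 2 cells of each layer, the difference was 4.86 on day 3, 1.34 on day 4, 4.59 on day 5 and 6.63 on day 6 (mean 4.36, SD 2.204, n = 4 days). These values pool both areas, in mixes that differed between the layers. On day 3, L4 held 6 S1 and 2 V1 cells, and L5 held 3 S1 and 5 V1 cells. On day 6, L4 held 1 cell of each area, both at 0. Ncald was higher in S1 than in V1 by 4.18 in L4 of the first series. The mix can thus move each value, by an amount that was not tested. Layer differences of other genes within days were pooled alike. A gene was called here if its difference was at least 1 on this log2 scale, a factor of 2 in CPM + 1, and had the same sign in every day so compared. The pseudocount of 1 makes this scale understate differences between low values. Where some cells are at 0, the mean also moves with the share of cells that have a read. For Vsnl1 in L4, S1 and V1 had 247.5 and 248.9 CPM over their cells together, but differed by 0.79. Its reads were in 97.1% of these S1 cells and 83.3% of the V1 cells. With a pseudocount of 10, the layer difference of Ncald was 3.06. By that rule, 2 of the 5 members that passed the filter on low counts (at least 32 counts in at least 10 cells of the comparison) were called higher in L5, Ncald and Vsnl1, and none lower. Among all 8921 genes past this filter, 5.16% were called higher and 2.53% lower in L5. Since this contrast led to the choice of the family, nothing is read from the count. The median difference over all genes was 0.19, and 0.32 when cells were thinned to the fixed depth.

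The layer difference of Ncald was not alike in the 2 areas. In V1 the mean was 7.54 in 17 L5 cells and 1.84 in 21 L4 cells of the first series, a difference of 5.70, and it was positive in both days that could be compared (mean 7.33, SD 0.55). In S1 it was 8.87 in 16 L5 cells and 6.03 in 16 L4 cells, a difference of 2.84, which was positive in 2 of 3 days (mean 1.70, SD 2.31). The exception was day 4, on which 3 S1 L4 cells averaged 9.05 and 5 S1 L5 cells 8.79. Ncald would therefore not have been called in S1 cells alone. Whether the layer difference itself differed between the areas was not tested.

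**Figure D3:**
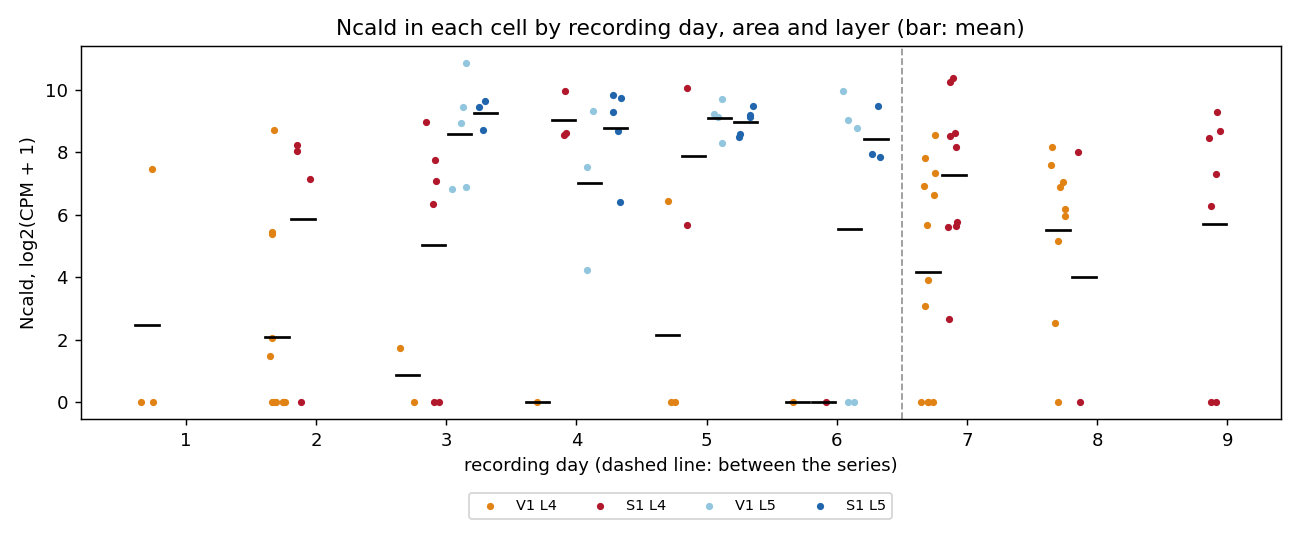
Ncald in every kept cell as log2(CPM + 1) (y axis) by recording day (x axis), with the mean of each area and layer within a day as a bar and a dashed line between the 2 series. Within days 3 to 6 the V1 L4 cells lie low and the S1 L5 cells high, and on day 4 the 3 S1 L4 cells lie among the L5 cells.

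Vsnl1 (visinin-like 1, also VILIP-1), described to raise the surface expression of nicotinic receptors containing Chrna4 and to modulate guanylate cyclases, was read in 35 of 42 V1 L4, 33 of 34 S1 L4, 16 of 17 V1 L5 and 15 of 16 S1 L5 cells. Its lowest value was 0 CPM in every group, the median was 128.1, 226, 345 and 170 CPM, and the highest value was 602, 554, 527 and 975 CPM in this order of groups. The mean level was 6.06, 6.84, 7.66 and 7.14, and no step between neighbouring groups exceeded the SD over days (1.01 to 1.40). In the first series, L5 was above L4 by 1.09 (7.40 against 6.32). The differences within days were 1.34, 0.20, 0.82 and 0.08 (mean 0.61, SD 0.58, n = 4), all positive. This call did not hold under several settings. Without day 2, which had no L5 cells, the difference was 0.58. With L4 cells of days 3 to 6 alone it was 0.64, and by the mean within days 0.61, and none of these values reached the size of 1. It was 1.76 in V1 cells and 0.27 in S1 cells, with both signs among the days of each area.

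Vsnl1 was the member whose level moved most closely with that of other genes. Across all kept cells, its closest genes by Spearman correlation were Vamp2 (rho = 0.78), Sncb (0.78) and Snap25 (0.77), which encode a vesicle SNARE, beta-synuclein and a plasma membrane SNARE. Within L4 the values were 0.78, 0.73 and 0.80 (n = 76 cells), and within L5 0.72, 0.85 and 0.62 (n = 33 cells). The nuclear noncoding RNA Malat1 went the opposite way (rho = -0.68, with -0.71 in L4 and -0.46 in L5), as did Meg3 (-0.63). All values of a cell share its library and its total count, so such correlations are a description and carry no p-value. In the first series, Malat1 averaged 14.49 in L4 and 13.11 in L5, lower in L5 in 3 of 4 days, and Sncb was higher in L5 by 1.30 in 4 of 4 days. The part of this in the layer difference of Vsnl1 was not tested.

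**Figure D4:**
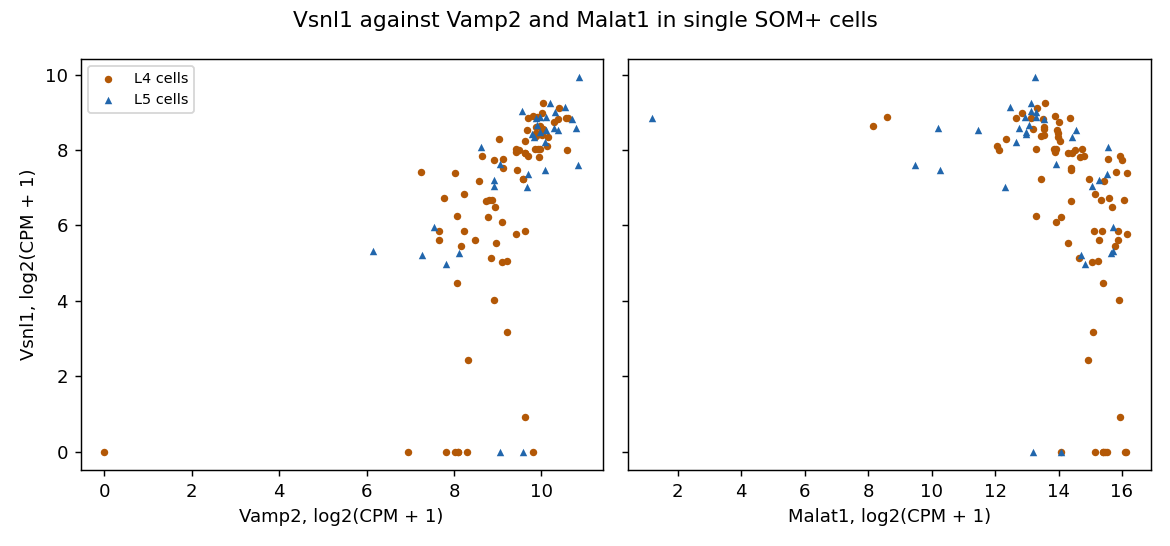
Vsnl1 (y axis) against Vamp2 (left, x axis) and Malat1 (right, x axis) in all kept cells, as log2(CPM + 1), with L4 cells as circles and L5 cells as triangles. Vsnl1 is higher in cells with more Vamp2 (rho = 0.78) and lower in cells with more Malat1 (rho = -0.68), and the cells of both layers overlap.

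Hpcal4 (hippocalcin-like 4, also VILIP-2), known as a modulator of P/Q-type calcium channels, was read in 39 of 42 V1 L4 cells, 28 of 34 S1 L4, 14 of 17 V1 L5 and 13 of 16 S1 L5 cells. Its values started at 0 CPM in every group. Its medians were 367, 253, 196 and 114.3 CPM and its highest values 1289, 789, 745 and 603 CPM. Its mean level was highest in V1 L4 (7.36), followed by V1 L5 (6.56), S1 L4 (6.51) and S1 L5 (5.59). The groups overlapped broadly, and no step between neighbours was beyond the SD over days. In the first series L5 was below L4 by 0.66 (6.09 against 6.76). The differences within days were -0.41, -0.69, -1.80 and -2.06 (mean -1.24, SD 0.81, n = 4), lower in 4 of 4 days, but the overall size was under 1 and the gene was not called. By the mean within days it would have been called, in place of Vsnl1, at a setting that called 4.76% of all genes lower. At the fixed depth the difference over all cells was -0.06. In S1 cells alone it was -1.09 and negative in 3 of 3 days, which met the call rule, as 4.71% of all genes did in that direction there, and in V1 cells alone it was -0.25 and negative in 2 of 2 days.

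Ncs1, which is described to bind phosphatidylinositol 4-kinase beta, the dopamine D2 receptor and the guanine exchange factor Ric8, differed least between groups among the widely read members. It was read in 34 of 42 V1 L4 cells, 30 of 34 S1 L4, 14 of 17 V1 L5 and 15 of 16 S1 L5 cells. The values started at 0 CPM in every group, with medians of 136.9, 161.8, 186 and 147.3 CPM and highest values of 624, 605, 480 and 692 CPM. The 4 mean levels lay between 5.85 and 6.40, with steps of 0.13 to 0.24 that were all far below the SD over days (0.88 to 1.76). L5 minus L4 was 0.18 in the first series, positive in 1 of 4 days (mean within days -0.27, SD 1.29).

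Hpca, which in hippocampal neurons takes part in the slow afterhyperpolarization and in long-term depression through the clathrin adaptor AP2, was the widely read member found in the fewest cells. It was read in 23 of 42 V1 L4 cells, 18 of 34 S1 L4, 11 of 17 V1 L5 and 9 of 16 S1 L5 cells. Its lowest value was 0 in every group, its medians were 6.56, 2.02, 11.8 and 18.3 CPM, and its highest values were 260, 133.1, 142.2 and 351 CPM. The mean levels lay between 2.70 (S1 L4) and 3.47 (S1 L5), with no step beyond the SD over days. The layer difference was -0.10, lower in 3 of 4 days (mean within days -0.48, SD 0.98).

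Hpcal1 (hippocalcin-like 1, also VILIP-3) had 1 count in 1 V1 L4 cell, and reads in 3 of 16 S1 L5 cells with a highest value of 37.2 CPM. It was at 0 in all 34 S1 L4 cells, which by the limit of 3 counts allows a share of up to 8.82% of cells, and in all 17 V1 L5 cells, which allows up to 17.6%. It passed the filter on low counts in none of the comparisons. No difference is read from it.

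Between areas within L4, none of the 5 members past the filter was called, where 1.30% of 9201 genes were called higher in S1 and 1.89% lower. Ncald came nearest, with a difference of 2.89 (S1 6.18, V1 3.29). It was positive in 4 of 5 days, with values of 3.76, 4.15, 5.72, 3.13 and -1.50 (mean 3.05, SD 2.72). The negative value came from day 8, which had 2 S1 cells and 9 V1 cells. Without that day the difference was 3.63 and Ncald was called, with 3.21% of all genes called higher. In the first series alone it was 4.18 and positive in 3 of 3 days, where 7.22% of all genes were called higher, and in the second series 1.57 and positive in 1 of 2 days. The other 4 members differed by 0.56 (Ncs1), -0.41 (Hpca), -0.85 (Hpcal4) and 0.79 (Vsnl1), each with both signs among the days and an SD over days of 0.88 to 2.43. Hpcal4 was lower in S1 by 1.56 in the second series, in 2 of 2 days, where 14.4% of all genes were called lower, and by 0.13 in the first. With the authors' RPKM in place of CPM, the shares of all genes called higher and lower in S1 were 1.11% and 1.01%.

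Between areas within L5, again none of 5 members was called, against 8.54% of 6402 genes called higher in S1 and 4.15% lower. The median difference over all genes was 0.24. Ncald differed by 1.33 (S1 8.87, V1 7.54), positive in 3 of 4 days with values of 0.68, 1.76, -0.11 and 2.87 (SD 1.30). Its spread over cells was wider in V1 (SD 3.22, n = 17 cells) than in S1 (SD 0.89, n = 16 cells). In V1 L5, 2 cells, both of day 6, had no read, and the other cells ran from 4.23 to 10.87. The S1 L5 cells ran from 6.40 to 9.84. Hpcal4 was lower in S1 by 0.97 in 3 of 4 days (SD 1.17), and Vsnl1 by 0.52 in 3 of 4 days (SD 1.55). Ncs1 (-0.19) and Hpca (0.24) had 2 days of each sign. When cells were thinned to the fixed depth, which left out 3 shallower L5 cells, Ncald was called higher (1.46) and Vsnl1 lower (-1.12) in S1. The split of all called genes then moved from 547 higher and 266 lower to 487 and 391, that is 7.70% and 6.18% of genes.

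**Figure D5:**
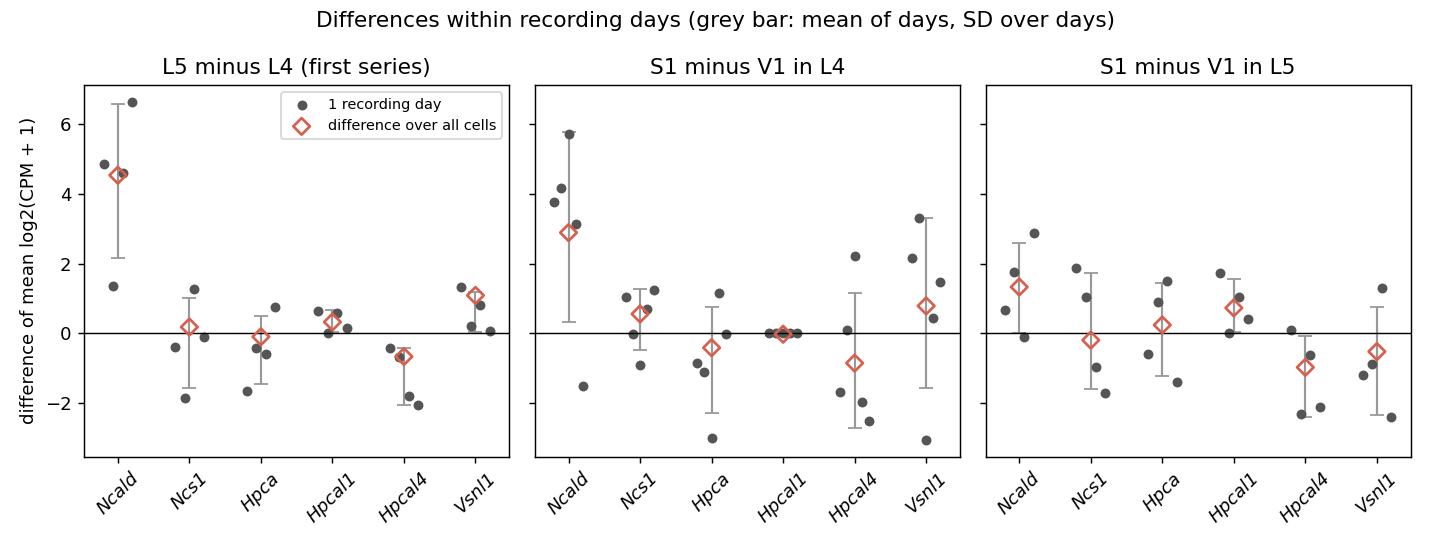
Differences of mean log2(CPM + 1) (y axis) for the 6 genes in the 3 comparisons, with 1 grey point per recording day, the mean and SD over days as a grey bar and the difference over all cells as an open diamond. For L5 minus L4 all 4 days of Ncald and Vsnl1 lie above 0 and all 4 of Hpcal4 below, whereas in both area comparisons each of these 3 genes has days on both sides of 0.

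Markers of other cell types were read in these aspirated cells, and their summed levels differed between layers and areas. In the first series the 6 astrocyte genes together had 367 CPM in L4 (0 to 7932 per cell) and 140 CPM in L5 (0 to 1350 per cell), and all 6 were read in both. By mean log2(CPM + 1) the highest was Aldoc, with 4.94 in L4 and 3.60 in L5, lower in L5 in 4 of 4 days. The other astrocyte genes were at or below 1.17 in L4 and 0.92 in L5. The 9 excitatory neuron genes together had 404 CPM in L4 (63.4 to 1097 per cell) and 257 CPM in L5 (1.84 to 1000 per cell), with Neurod1 at 0 in both and Slc17a6 at 0 in L4. The highest of them was Camk2a, with a mean of 8.25 in L4 and 7.33 in L5, lower in L5 in 2 of 4 days. Nrgn had 2.31 and 2.22, and Slc17a7, with 0.71 and 0.75, was the highest of the rest. The 6 oligodendrocyte genes had 373 CPM in L4 (0 to 4922 per cell) and 485 CPM in L5 (0 to 5580 per cell), and the 6 microglia genes 237 CPM (0 to 1512 per cell) and 320 CPM (0 to 3284 per cell), all read in both. Between areas in L4, the 6 oligodendrocyte genes had 267 CPM in V1 (0 to 3717 per cell) and 1115 CPM in S1 (0 to 9702 per cell), with Mag at 0 in V1. In L5 they had 239 CPM in V1 (0 to 3870 per cell) and 731 CPM in S1 (0 to 5580 per cell), with Mog at 0 in V1. The microglia genes had 513 CPM in V1 L5 (0 to 3284 per cell) and 128.5 CPM in S1 L5 (0 to 725 per cell), with P2ry12 at 0 in S1. Their part in the differences of the calcium sensor genes was not tested. Median depth was alike in the layer comparison, with 1066010 counts in L5 and 1001190 in L4. The shallowest cell had 97904 counts in L5 and 320392 in L4. The mean number of genes read was 6602 in L5 (SD 1725) and 6153 in L4 (SD 1581).

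The remaining genes of the sensor family, the proteins that the members are described to act on, and other EF-hand sensors were followed as lists. Of 7 further family genes (the potassium channel subunits Kcnip1 to Kcnip4, recoverin and the guanylate cyclase activators Guca1a and Guca1b), 3 passed the filter in the layer comparison, and 1, Kcnip4, was called, as higher in L5. Kcnip4, an auxiliary subunit of Kv4 channels, averaged 4.41 in L5 and 1.05 in L4, a difference of 3.35 (mean within days 3.55, SD 1.68, 4 of 4 days). The median of the 3 genes was 1.36. Of 19 partner genes 15 passed, with a median of -0.13, none was called higher and 1 lower. This was Chrna4, a nicotinic receptor subunit, with 2.15 in L5 and 4.45 in L4 (difference -2.31, mean within days -2.77, SD 1.10, 4 of 4 days). The N-myristoyltransferases differed by 0.79 (Nmt1) and -0.13 (Nmt2), with both signs among the days. Of 8 other sensors 3 passed, with a median of 0.70 and no call. Over all genes past the filter, 5.16% were called higher and 2.53% lower in L5, with a median of 0.19. The lists are short, so nothing is read from these counts.

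In the comparison of areas within L4, 1 of 2 further family genes past the filter was called, Kcnip1, with 8.02 in S1 and 6.70 in V1 (difference 1.31, SD over days 1.35, 5 of 5 days). None of 16 partner genes was called (median -0.22), and of 4 other sensors 1 was (median 0.97), Necab3, with 3.34 in S1 and 1.16 in V1 (difference 2.18, SD over days 1.44, 5 of 5 days). Over all genes past the filter in L4, 1.30% were called higher in S1 and 1.89% lower, with a median of 0.015. Within L5, Kcnip4 was called among 3 further family genes, with 6.01 in S1 and 2.90 in V1 (difference 3.11, SD over days 0.89, 4 of 4 days). Of 10 partner genes 2 were called higher in S1 (median 0.54). These were Nmt1, which attaches the myristoyl group, with 4.83 against 3.58 (difference 1.25), and Ric8 with 6.20 against 4.06 (difference 2.13), both in 4 of 4 days. None of 3 other sensors was called (median -0.09). Over all genes past the filter in L5, 8.54% were called higher in S1 and 4.15% lower, with a median of 0.24. Nothing is read from the counts of these short lists.

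The genes most like Ncald over all kept cells, among 9993 genes, were Lypd6b (rho = 0.59), Npas1 (0.56), Coq2 (0.53), Zc2hc1a (0.52) and Sema3e (0.52). Within layers the correlations were lower for 4 of the 5 genes. Sema3e, a secreted semaphorin, had 0.31 in L4 and 0.40 in L5, and Coq2, an enzyme of coenzyme Q synthesis, 0.54 and 0.45. Of the genes that name SOM subtypes, 8 passed the filter. Cbln4, a secreted synapse organizer, went most strongly against Ncald (rho = -0.47, with -0.24 in L4 and -0.53 in L5), followed by Calb2 (-0.37) and Etv1 (-0.30). Crh had a rho of 0.32 over all cells, but -0.14 in L4 and 0.35 in L5.

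For the other members the closest genes were less close. Hpca was nearest to Lmo4 (rho = 0.50), N6amt2 (0.49) and Psmb5 (0.47), Ncs1 to Pdf (0.42), Ndrg4 (0.40) and Spns1 (0.39), and Hpcal4 to Pdxk (0.38), Pafah1b3 (0.37) and Arpc1b (0.37). Among the members themselves, Ncald and Vsnl1 had a rho of 0.42 (0.39 in L4, 0.44 in L5), Hpca and Vsnl1 0.37 (0.37 in both layers) and Hpcal4 and Vsnl1 0.22. All 7 other pairs lay between -0.07 and 0.12.

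In S1 L4, Ncald had a median of 355 CPM in the 23 cells with reads of Hpse and 76.6 CPM in the 11 cells without, with a lowest value of 0 in both and means of 6.72 and 5.05. For Hpcal4 in the same cells the medians were 247 and 261 CPM. Split by Calb1 in S1 L4, Ncald had a median of 78.8 CPM in 14 cells with reads and 359 CPM in 20 without, and Hpcal4 253 and 254 CPM. In V1 L4, Hpcal4 had a median of 427 CPM in the 20 cells with reads of Calb2 and 270 CPM in the 22 cells without, with means of 8.08 and 6.70. Ncald had 1.58 and 6.07 CPM there. No spread over days is given for these splits.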

How the data were processed

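Single cells were aspirated after patch-clamp recording, and full-length cDNA was amplified after Smart-seq2, with no molecular identifiers. The authors aligned 75-base single-end reads to mm10 with STAR 2.4.2a and deposited read counts per gene. The authors also deposited RPKM values, made with rpkmforgenes and RefSeq genes. The counter behind the counts is not given in the sources used here. Cell labels came from the GEO fields. A further deposited table of cell features repeats these labels and was not used.

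Counts were scaled to CPM of each cell's total and compared as mean log2(CPM + 1). Since no label names an animal, no p-value was computed, and the spread is the SD over recording days with at least 2 cells of each group. The date in a cell's name was taken as its recording day. The paper gives 6 mice for these cells, fewer than the 9 dates. Some dates may thus have shared an animal, or a date may not be a recording day, and the labels do not settle this. Days can therefore not be taken as independent replicates, and the SD over days is not a spread over animals. Thinning to 250000 counts used random seed 1. The 6 members and the lists were chosen with earlier results of these data known. Named were all members, called genes of the lists of further family genes, partners and other sensors, the 3 genes most like each member (5 for Ncald, none for Hpcal1, which had too few reads) and the subtype-naming genes at both ends of their correlation with Ncald. Some levels and lists beyond these were named after their values were seen, such as Malat1, Meg3, Nmt1 and Nmt2 in the layer comparison and the Hpse, Calb1 and Calb2 splits. Of RefSeq promoter entries, 5 of 6 members had one, none for Ncald, and none is printed. Alternatives were TMM scaling (edgeR 4.0.16), a pseudocount of 10, RPKM, thinning, at least 4000 genes per cell, no condition on Sst, no filter, within-day means, single areas, series or days. A gene of the list of other sensors is not reported here. Python 3.11.15 and R 4.3.3 were used.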

Additional observations from a re-analysis of the deposited data

Results flagged for a closer look

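Cells left out of the comparisons carried reads of most members. In the S1 L4 group, 4 cells with at least 1500 genes had no Sst read, 1 on each of days 2, 3, 4 and 5. Over these cells together, Hpca stood at 457 CPM (95% Poisson interval 439 to 475, counting error only), and its values ran from 256 to 747 CPM. The highest value among the 34 kept S1 L4 cells was 133.1 CPM, so none of them reached the lowest of the 4. Ncald stood at 459 CPM over the 4 cells, with reads in 3 of them, and at 193 CPM without the cell of day 4. Ncs1 stood at 256 CPM and Vsnl1 at 319 CPM with reads in all 4, and Vsnl1 at 177.6 CPM without the cell of day 4. Hpcal4 stood at 26.3 CPM with reads in 2, and at 3.85 CPM without the cell of day 5. These levels were above the 0.54 CPM that a count of 0 allows over the 4 cells. Hpcal1 had 3 counts in 1 cell and did not exceed it. The same 4 cells all had reads of Pvalb, the parvalbumin gene that marks another interneuron class, with a lowest value of 94.4, a median of 630 and a highest of 921 CPM. Among the kept S1 L4 cells its median was 1.46 and its highest value 257 CPM. Its bearing on the levels of the calcium sensor genes was not tested. The paper left out 3 sequenced cells that were fast-spiking, had no somatostatin reads and mapped to a Pvalb type. It considers them likely to be basket cells. They were not matched to the 4 cells here. The 4 cells were set apart by a measured value, so no comparison with the kept cells was tested.

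In the V1 L5 cell with more Slc17a7 than Gad1 and Gad2 counts, Ncald was at 300.1 CPM, Ncs1 at 52.6, Hpca at 50.0, Hpcal4 at 637 and Vsnl1 at 39.5 CPM, each above the 3.95 CPM that a count of 0 allows in that cell. Hpcal1 had no count there.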

How the results depend on the processing

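Ncald was higher in L5 than in L4 of the first series under all 19 alternatives, with differences of 2.84 to 5.70, and it was called under 18 of them, the exception being S1 cells alone. The family was chosen by this difference, so these counts are a description and support nothing further. Some alternatives could not change the call. Dropping the filter leaves the same 4.53, and the average of both areas kept the day signs of the main comparison. Days 1 and 2 held no L5 cells, so leaving out either could not change a sign. Leaving out each recording day gave 4.15 to 4.93. The number of members called in the layer comparison, 2, became 1, Ncald, with a pseudocount of 10 (1.57% of all genes called higher) and without the condition on Sst (4.9%). It was also 1, again Ncald, with L4 cells of both series (3.71%), with days that hold L5 cells only (5.49%) and with V1 cells alone (8.38%). With S1 cells alone it was 1 as well (Hpcal4, where 4.71% of all genes were called lower). By within-day means it was again 2, but Ncald and Hpcal4, with 6.47% of all genes called higher and 4.76% lower. It was 1 to 2 when single days were left out, where 5.16% to 9.61% of all genes were called higher. Vsnl1 was called under 10 of 19 alternatives. An average of the V1 and S1 differences, an alternative chosen after seeing the data, gave 4.27 for Ncald and 1.01 for Vsnl1. Between areas in L4, 0 members became 1 with at least 4000 genes per cell (Ncald, with 2.78% of all genes called higher), in the first series alone (Ncald, 7.22%) and in the second series alone (Hpcal4, with 14.4% called lower). Without single days it was 0 to 1, namely Vsnl1 without day 5 (3.05% called higher), Hpca without day 7 (3.61% lower) and Ncald without day 8 (3.21% higher). Between areas in L5, 0 became 1 with TMM scaling and with at least 4000 genes (Ncald, with 9.29% and 6.39% of all genes called higher), and 2 after thinning (Ncald and Vsnl1, with 7.70% higher and 6.18% lower). Without single days it was 0 to 2, with Hpcal4 called without day 3 (7.93% lower) and Ncald and Vsnl1 without day 5 (13.4% higher, 8.87% lower). Vsnl1 was also above 0 between layers under all 19. Hpca, called without day 7 between areas in L4, was at 0.21 there without the condition on Sst and at 0.04 without day 9. The causes of the changes were not tested.

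Over all genes, 686 were called between layers against 214 with a pseudocount of 10, 1242 in V1 alone and up to 1089 without 1 day. Between areas in L4 it was 294, against 77 with a pseudocount of 10, 195 with RPKM, 450 with at least 4000 genes, 527 by within-day means, 871 and 1690 in the first and second series alone and up to 547 without 1 day. In L5 it was 813 against 382 with a pseudocount of 10. Of 24 shares of cells with a read, 23 stayed within their interval when 5 counts were required and 22 after thinning. With 2 to 12 cells per group and day, the within-day values are coarse.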
